A study of Mus musculus with 6 samples.

Results

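Integrins, CD44 and PECAM1 are the surface receptors with which blood stem and progenitor cells hold on to the bone marrow niche, and the transcripts of 10 of them were followed here in sorted progenitors: Itga4, Itga5, Itga6, Itgal, Itgam, Itgb1, Itgb2, Itgb3, Cd44 and Pecam1. They were taken by symbol from a table of 23997 gene symbols, and all 10 were found and passed the filter on low values, as did 15662 genes in all. RNA-seq libraries had been made from hematopoietic stem and progenitor cells (HSPCs) sorted from bone marrow as Lin-Sca1+cKit+ (LSK) cells, a gate that holds stem cells and multipotent progenitors. There were 3 wildtype and 3 Mirc11-/- libraries, all from C57BL/6 mice of 6 to 8 weeks in normal hematopoiesis and with the same batch date, and each library was an RNA preparation that pooled 3 to 4 mice. Mirc11-/- mice lack the microRNA (miRNA) cluster of miR-23a, miR-27a and miR-24-2. The deletion is carried by the whole mouse, so the niche around the HSPCs lacks the cluster too. The study compared the genotypes to learn how the cluster shapes gene expression and inflammatory signaling in HSPCs, and the comparison made here asks whether the adhesion receptors differed between them.

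An integrin is a pair of one α and one β chain that spans the membrane, binds matrix or another cell outside and is linked to actin inside. Cells can switch integrins from a bent, resting form to an extended, binding form, so the amount of transcript does not tell how much adhesion there is. In the marrow, α4β1 (VLA-4) binds VCAM1 and fibronectin, α5β1 (VLA-5) binds fibronectin and α6β1 binds laminin. CD44 binds hyaluronan and PECAM1 binds PECAM1 on neighbouring cells.

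The values are normalized counts, reads of a gene after division by a factor for library size, so that 1 read counts for nearly 1. Reads in genes came to 15029379 to 17051541 per library. The entries of Mir23a, Mir27a and Mir24-2 held 51, 54 and 73 reads over the wildtype libraries and 0 reads in each of the Mirc11-/- libraries, so every library matched its label. Of the LSK genes, Kit was at 8577 to 9416 normalized counts in wildtype and 6644, 8463 and 9949.6 in Mirc11-/- libraries 1, 2 and 3, and Flt3 at 9449 to 12040 and then 5614, 6643 and 10820. Ly6a, the gene of Sca1, was lower, at 444 to 683 in wildtype and 374, 481 and 534 in those Mirc11-/- libraries. Cd3e, of T cells, was at 2.01 or less. Mirc11-/- library 3 stood apart from the other two of its genotype. The median of 16 erythroid markers lay 1.50 and 1.38 above the wildtype mean on the log2 scale in Mirc11-/- libraries 1 and 2 and -0.18 from it in library 3. For this reason the fold changes of the receptors are also given without that library. It was singled out after its values were seen, and its erythroid median was the nearest to wildtype of the Mirc11-/- libraries. Without it limma gave 430 genes an adjusted p under 0.05, against 5 with all libraries. A pass in that fit is therefore no independent support for a difference.

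Pecam1 was the receptor with the largest difference between the genotypes. Its normalized counts were 2039, 2315 and 2275 in the wildtype libraries and 1366, 1321 and 1711 in the Mirc11-/- libraries. Each Mirc11-/- library was below each wildtype library, and library 3 was the nearest to them. The means were 2210 ± 149 and 1466 ± 213 (SD, n = 3 libraries each), so that Mirc11-/- HSPCs held 66.3% of the wildtype level. The log2 fold change was -0.60 (SE 0.11, 95% CI -0.85 to -0.35), with an adjusted p of 0.332 by limma over all genes. It did not pass the threshold of 0.05 there, in edgeR (adjusted p = 0.354) or with the replicate number as a block (0.0668), and it passed in DESeq2 (0.00285) and by limma without Mirc11-/- library 3 (-0.72, adjusted p = 0.0127), with adjusted p-values from 0.00285 to 0.998 over all alternatives. The summed level of 13 LSK markers was 42434 to 50014 in wildtype and 28757, 36746 and 50110.2 in Mirc11-/- libraries 1, 2 and 3, so that it too was lowest in libraries 1 and 2, and its part in the Pecam1 values was not tested. Of these markers 4 had positive and 9 negative log2 fold changes, 0 passed the threshold and none was at 0. An unadjusted p under 0.05 was found for 2, beside 8.24% of all genes. By limma without Mirc11-/- library 3, 2 of them passed, beside 2.75% of all genes. Pecam1 is on a list of genes downstream of TNF, IL-6 or IL-1β that the study drew up from these same libraries. So are Selp, Mmp9, Postn and Rgs2, all given below, and none of their values is evidence independent of that list. The list gives each of these genes a negative log fold change. Here Mmp9 had higher values in Mirc11-/- libraries, opposite to the list, and the reason was not tested.

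The other receptors differed less, and 0 of the 10 passed the threshold by limma, against 5 of 15662 genes (0.0319%). By unadjusted p under 0.05 there were 4 of 10, beside 8.24% of all genes. Pecam1 and Itgam were the 2 with lower values in Mirc11-/- HSPCs (4.09% of all genes) and Itgb3 and Itgb1 the 2 with higher values (4.15%). The values of the genotypes did not overlap for 6 of 10, beside 12.9% of all genes. These were Pecam1, Itgam, Itgal and Itga4, with lower values in Mirc11-/- HSPCs, as for 6.53% of all genes, and Itgb1 and Itgb3, with higher values, as for 6.42%. The 10 receptors were chosen with earlier results of these data known, so these shares do not test the receptors as a set. The median log2 fold change was -0.066 over the 10 receptors and 0.0025 over all genes. DESeq2 called 1 of 10 (0.798% of all genes), limma without Mirc11-/- library 3 called 1 of 10 (2.75%), in both cases Pecam1, and edgeR called 0 of 10 (0.0255%). Without that library the log2 fold changes of the others were 0.53 for Itgb3, 0.32 for Itga5, 0.28 for Itgb1, -0.011 for Itgb2, -0.078 for Cd44, -0.099 for Itga6, -0.10 for Itga4, -0.28 for Itgal and -0.30 for Itgam, each of them short of the threshold.

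**Figure D1:**
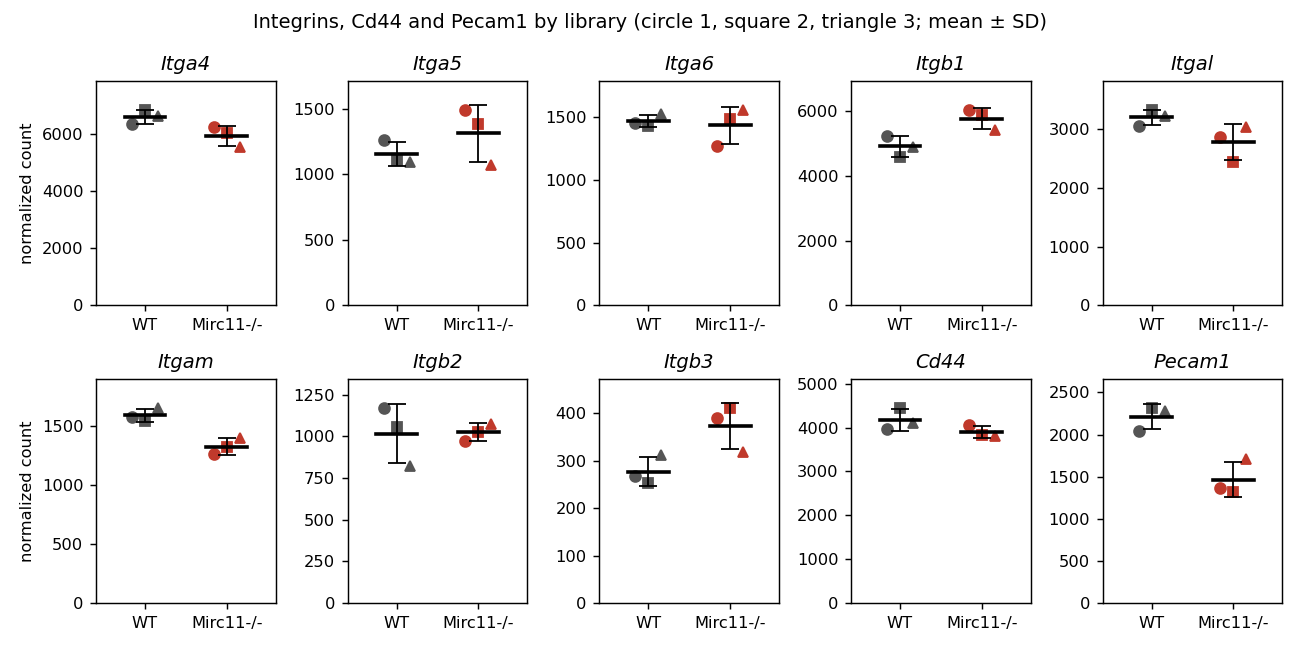
Normalized count (y axis, from 0) of the 10 receptor genes in wildtype (gray) and Mirc11-/- (red) HSPCs. Markers are libraries 1 (circle), 2 (square) and 3 (triangle), and bars the mean ± SD of 3 libraries. The values of Pecam1 lay between 2039 and 2315 in wildtype and between 1321 and 1711 in Mirc11-/- libraries, and those of Itgb2, Itga6, Itga5 and Cd44 overlapped.

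**Figure D2:**
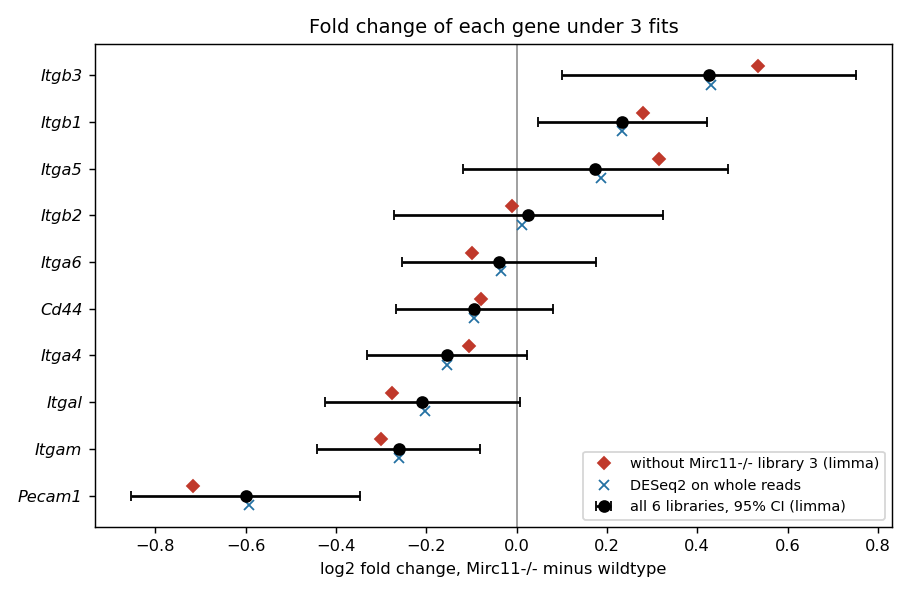
Log2 fold change of each receptor gene (x axis, Mirc11-/- minus wildtype) by limma with its 95% CI (black), by limma without Mirc11-/- library 3 (red) and by DESeq2 (blue). The interval of Pecam1, -0.85 to -0.35, was the farthest from 0, and the intervals of Itgam, Itgb1 and Itgb3 left out 0 before adjustment over all genes.

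The miRNAs of the cluster act by pairing their seed, bases 2 to 8 from the 5′ end, with the 3′ UTR of a transcript, which is then degraded or less translated. The 3 main strands encoded by the deleted cluster, from RefSeq (GRCm38.p6) with the seed in capitals, are shown to be read against the sites in the receptor transcripts that follow. miR-23a and miR-27a have seeds that share their first 5 bases, and miR-24, which is also made from the gene Mir24-1 elsewhere in the genome, has an unrelated one. The study also names a paralog cluster, Mirc22, with the genes of miR-23b, miR-27b and miR-24-1. Related miRNAs of all 3 kinds thus have a source outside the deleted cluster.
mmu-miR-23a-3p: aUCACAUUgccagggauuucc
mmu-miR-27a-3p: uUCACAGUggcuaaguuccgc
mmu-miR-24-3p: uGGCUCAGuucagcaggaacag

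Matches were sought in every gene, in the longest 3′ UTR that its coding transcripts have in the annotation. An 8mer pairs with bases 2 to 8 and has an A opposite base 1, a 7mer-m8 lacks that A, and a 7mer-A1 has it but pairs with bases 2 to 7. At least 1 match was found in 4 of the 10 receptor genes (Itga4, Itga5, Itgb3 and Cd44), compared with 52.2% of the 13557 genes tested that had a UTR. Itga4 held 4 matches in a UTR of 6508 bases, long beside the median of 1111 bases for all genes, Cd44 held 3 in 2992 bases, Itgb3 1 in 3331 bases and Itga5 1 in 983 bases. The 8mer matches, and the one match in Itgb3, are printed as 30 bases of the UTR with the match in capitals.
Itga4, miR-27a, 8mer: atgttactatctcACTGTGAAgtctgagat
Itga4, miR-24, 8mer: catatactcctagCTGAGCCAcaagccagc
Itga5, miR-27a, 8mer: cttccccccatgcACTGTGAAggaccctcg
Itgb3, miR-23a, 7mer-A1: ctcttcctggaagcATGTGAAgatgggtat

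Of the 4 genes with a match, Itga5 and Itgb3 had positive log2 fold changes in Mirc11-/- HSPCs and Itga4 and Cd44 negative ones. No match was found in the UTRs of Itgb1 and Pecam1, nor in those of Itga6, Itgal, Itgam and Itgb2. A match is a run of letters and does not show that a miRNA acts there.

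Itgb1 encodes β1, the shared partner of α4, α5 and α6. Its normalized counts were 5240.4, 4592 and 4912 in the wildtype libraries and 6035, 5879.9 and 5423 in the Mirc11-/- libraries, all of which were above all wildtype values. The means were 4915 ± 324 and 5779 ± 318, a log2 fold change of 0.23 (SE 0.082, 95% CI 0.048 to 0.42, limma adjusted p = 0.510). Over the alternatives the adjusted p was 0.112 to 0.998. The gene lies at chr8:128685654-128733200 (GRCm38), on the chromosome of the deleted cluster and 44.5 Mb from Mir24-2.

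Itga4 encodes α4, the chain by which progenitors bind VCAM1 and which also pairs with β7. Its normalized counts were 6362, 6849.7 and 6636 in the wildtype libraries and 6245, 6055 and 5544 in the Mirc11-/- libraries. Here library 3 was the lowest of all, and the groups were 117 normalized counts apart at their nearest values. The means were 6616 ± 245 and 5948 ± 362 (log2 fold change -0.15, SE 0.078, limma adjusted p = 0.626). Itga4 shares exon sequence with Cerkl on the other strand, where reads of the genes cannot be told apart without strand, and Cerkl was at 335 to 417 normalized counts.

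Itga5 encodes α5, a fibronectin receptor chain. Its normalized counts were 1259, 1107 and 1096 in the wildtype libraries and 1488, 1383 and 1068 in the Mirc11-/- libraries. Mirc11-/- libraries 1 and 2 were the highest of the 6 and library 3 the lowest, so the groups overlapped (log2 fold change 0.17, SE 0.13, limma adjusted p = 0.723). The log2 fold change was 0.32 without library 3 (adjusted p = 0.112) and 0.077 without Mirc11-/- library 1 (0.925). The 16 erythroid markers followed the same order of the Mirc11-/- libraries, with summed levels of 54182, 50238 and 22524 in libraries 1, 2 and 3 against 21512 to 30403 in wildtype. The order was not particular to them. Neutrophil and monocyte markers (266742, 209834 and 161683) and mast cell and basophil markers (3524, 2129 and 1647) had it too. The LSK, megakaryocyte, B lineage, endothelial and stromal sums had the reverse order, and the T and NK sum had neither. All 16 erythroid markers had a positive log2 fold change, 6 had an unadjusted p under 0.05 (8.24% of all genes did), and none was at 0. In all libraries 0 passed the threshold. Without library 3, 15 passed, beside 2.75% of all genes. That library was singled out after its erythroid median was seen, so the 15 are no independent support for a difference. Cells with the late erythroid antigen Ter119 were removed by the lineage antibodies of the sort. The part of erythroid or other such cells or transcripts in the Itga5 and Itgb1 values was not tested. In bulk samples fewer cells of a type and less RNA per cell cannot be told apart.

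Itga6 encodes α6, a laminin receptor chain found on many stem cells. Its normalized counts were 1457, 1430.1 and 1525 in the wildtype and 1269, 1484 and 1556 in the Mirc11-/- libraries, with the lowest and the highest of the 6 both in Mirc11-/- HSPCs. The log2 fold change was -0.039 (SE 0.095, 95% CI -0.25 to 0.18, limma adjusted p = 0.933), and it was 0.048 without Mirc11-/- library 1.

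The β2 integrins, LFA-1 (αLβ2) and Mac-1 (αMβ2), bind ICAMs and serve adhesion of leukocytes to endothelium. Itgam, which encodes αM, gave 1574, 1540.2 and 1653 normalized counts in the wildtype libraries and 1263, 1318 and 1398 in the Mirc11-/- libraries. All Mirc11-/- values were below all wildtype values, and the spread within each group was small (1589 ± 57.7 and 1326 ± 67.9). The log2 fold change was -0.26 (SE 0.079, 95% CI -0.44 to -0.081, limma adjusted p = 0.475, 0.0864 to 0.998 over the alternatives). αM is CD11b, one of the antigens used to remove lineage-positive cells in the sort, so these are transcript levels in cells gated for little or no CD11b protein. The annotation also holds Gm49368, a gene that shares exon sequence with Itgam and was not in the table.

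Of the 20 neutrophil and monocyte markers 19 could be tested. Their summed level was 188778 to 227823 in wildtype and 266742, 209834 and 161683 in Mirc11-/- libraries 1, 2 and 3. Of them 11 had positive and 8 negative log2 fold changes, 0 passed the threshold and none was at 0. An unadjusted p under 0.05 was found for 6, beside 8.24% of all genes. The lineage antibodies included Gr1 beside CD11b, and the part of such cells in the Itgam values was not tested.

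Itgal, which encodes αL, gave 3058, 3324 and 3225 normalized counts in the wildtype libraries and 2867, 2438 and 3036 in the Mirc11-/- libraries. The groups were separate by 22.3 normalized counts, between wildtype library 1 and Mirc11-/- library 3. The log2 fold change was -0.21 (SE 0.095, 95% CI -0.43 to 0.0069, limma adjusted p = 0.600). Of 11 T and NK cell markers measured, 9 could be tested and 0 passed the threshold, with summed levels of 2904 to 3175 in wildtype and 1457 to 3167 in Mirc11-/- libraries. CD3ε was among the lineage antibodies of the sort, and the part of such cells in the Itgal values was not tested. Without Mirc11-/- library 2 the log2 fold change of Itgal was -0.12.

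Itgb2, the shared β2 chain, gave 1171, 1059 and 819.7 normalized counts in the wildtype and 970.3, 1026 and 1077 in the Mirc11-/- libraries. The Mirc11-/- values all lay within the wildtype range (log2 fold change 0.026, SE 0.13, 95% CI -0.27 to 0.32, limma adjusted p = 0.974). Its direction turned to -0.12 without wildtype library 3 and to -0.011 without Mirc11-/- library 3.

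Itgb3 encodes β3, the partner of αIIb on megakaryocytes and platelets and of αv elsewhere, and was the lowest of the 10 in level. Its normalized counts were 268, 252 and 311 in the wildtype libraries and 389.6, 411 and 319 in the Mirc11-/- libraries. The highest wildtype and the lowest Mirc11-/- values, both of library 3, were close, and libraries 1 and 2 were well apart. The means were 277 ± 30.5 and 373 ± 48.3 (log2 fold change 0.43, SE 0.14, 95% CI 0.10 to 0.75, limma adjusted p = 0.502, 0.0751 to 0.998 over the alternatives). Of 11 megakaryocyte markers tested, 9 had positive log2 fold changes, 1 had an unadjusted p under 0.05 (8.24% of all genes did), and 0 passed the threshold. Their summed levels were 4486 to 5419 in wildtype and 3512 to 5543 in Mirc11-/- libraries, and none was at 0. Itga2b, which encodes αIIb, had a log2 fold change of 0.11 (SE 0.18, limma adjusted p = 0.886), which was -0.037 without wildtype library 2 and -0.021 without Mirc11-/- library 3. The part of megakaryocyte-primed cells in the Itgb3 values was not tested.

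Cd44, the hyaluronan receptor, gave 3965, 4450.03 and 4101 normalized counts in the wildtype libraries and 4068, 3832 and 3819.6 in the Mirc11-/- libraries. The groups overlapped, and the log2 fold change was -0.094 (SE 0.077, 95% CI -0.27 to 0.080, limma adjusted p = 0.748). The counts are per gene and do not separate the standard form of CD44 from its variant exons.

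For Pecam1, endothelial markers were examined too, since PECAM1 is found on all endothelium. Of 12 endothelial markers 11 could be tested, 5 with positive and 6 with negative log2 fold changes and 0 past the threshold. Their summed level was 2830.4 to 3424 in wildtype and 2237 to 3464 in Mirc11-/- libraries. Cdh5, the VE-cadherin of endothelial junctions, was at 0 to 3.78 normalized counts, Lyve1 at 0 to 1.04, Stab2 at 0 to 7.89, Cldn5 at 0 to 8.31 and Kdr at 5.67 to 20.8. Plvap was at 91.7, 67.5 and 68.9 in the wildtype and 93.6, 128 and 86.5 in the Mirc11-/- libraries, and Flt4 at 12.5 to 29.8. The sum was mostly Erg (1244 to 2459), Vwf (244 to 492), Emcn (159 to 302), Stab1 (91.6 to 211) and Tek (88.9 to 201), of which Erg, Vwf and Tek are also genes of stem cells or megakaryocytes. The part of endothelial cells in the Pecam1 values was not tested.

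**Figure D3:**
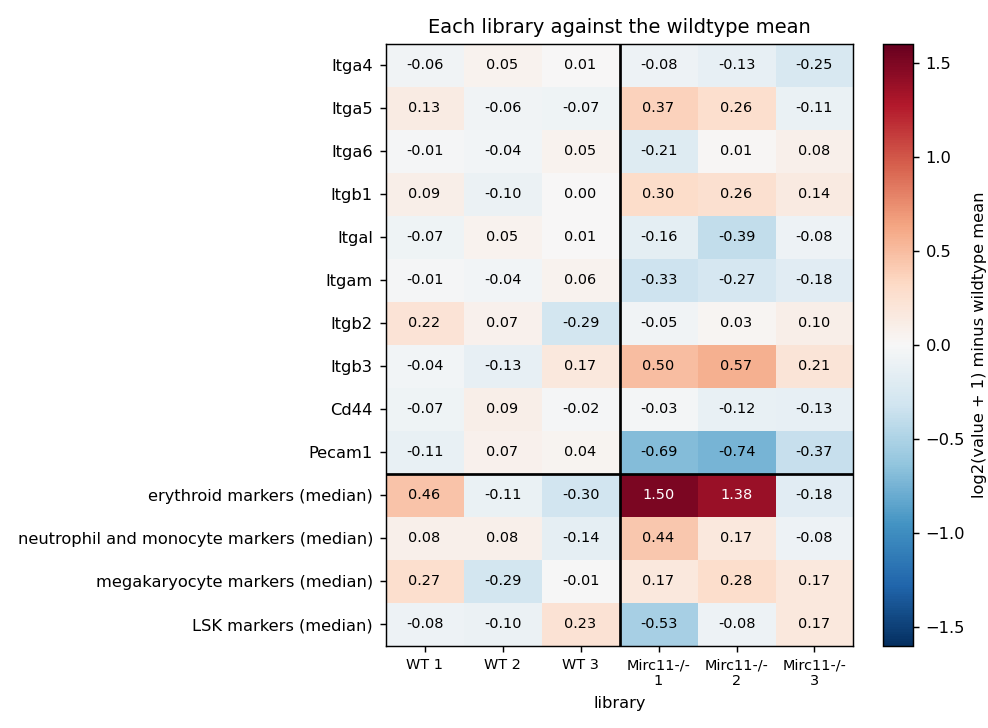
Log2(normalized count + 1) minus the mean of the 3 wildtype libraries (color and printed value) for each receptor gene and, under the line, the median over 4 lists of cell type markers, in the 6 libraries (columns). Pecam1 was below 0 in all Mirc11-/- libraries, at -0.69, -0.74 and -0.37, and the erythroid median was at 1.50, 1.38 and -0.18.

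Between genes, levels were compared per kilobase of the longest coding transcript. On that scale Itgb1 was the highest in wildtype HSPCs at 1288 ± 85.0 normalized counts per kb, followed by Cd44 (743 ± 44.6), Itga4 (677 ± 25.1), Pecam1 (642 ± 43.3) and Itgal (613 ± 25.7). Then came Itgb2 (342 ± 60.3), Itga6 (341 ± 11.4), Itgam (339 ± 12.3), Itga5 (263 ± 20.8) and, at the end, Itgb3 (47.9 ± 5.27). The ranges of 3 libraries did not overlap between Itgb1 and Cd44, Cd44 and Itga4, Itgal and Itgb2, Itgam and Itga5, or Itga5 and Itgb3, and the other neighbours in this order overlapped. In Mirc11-/- HSPCs Pecam1, at 426 ± 62.0 per kb, came after Itgal (532 ± 59.0), with which it overlapped, and was separate from Itga4 (609 ± 37.1). Itga5 (299.6 ± 49.9) came before Itgam (283 ± 14.5) there, again with overlap. When the union of all exons was used as the length, Itgb1 and Cd44 stayed first and second and Itgb3 last, while Itgal (487) came before Itga4 (473) and Pecam1 (355) in wildtype HSPCs.

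A chain reaches the surface only with a partner, so the ratio of transcript levels per kb was formed within each library. Itga4 over Itgb1 was 0.474, 0.583 and 0.528 in the wildtype libraries and 0.404, 0.402 and 0.399 in the Mirc11-/- libraries. All 3 Mirc11-/- ratios were lower than the wildtype ones and lay closer together (0.528 ± 0.0542 and 0.402 ± 0.00243), with a difference of -0.39 on the log2 scale. The exact two-sided permutation test over libraries gave p = 0.1, which is the smallest p that 3 against 3 libraries allow.

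Itgam over Itgb2 was 0.853, 0.923 and 1.28 in wildtype and 0.825, 0.815 and 0.823 in Mirc11-/- libraries. These groups did not overlap either (log2 difference -0.29, exact permutation p = 0.1), but wildtype library 1 was only 0.0275 above the nearest Mirc11-/- ratio, and without wildtype library 3 the log2 difference was -0.11. The ratios of Itga5 to Itgb1 (log2 difference -0.060, exact permutation p = 0.8), Itga6 to Itgb1 (-0.27, p = 0.2), Itgal to Itgb2 (-0.23, p = 0.4) and Itgb3 to Itga2b (0.32, p = 0.4) overlapped between the genotypes. With 1 library left out, Itga5 to Itgb1 turned to 0.037 (Mirc11-/- library 3), Itgal to Itgb2 moved to -0.082 (wildtype library 3), and Itgb3 to Itga2b was 0.089 without Mirc11-/- library 1 and 0.56 without library 3. None of the 6 ratios had a p under 0.05, and none could in this design. The Itga4 ratio joins a gene with higher and a gene with lower values, both described above, and adds no independent evidence.

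**Figure D4:**
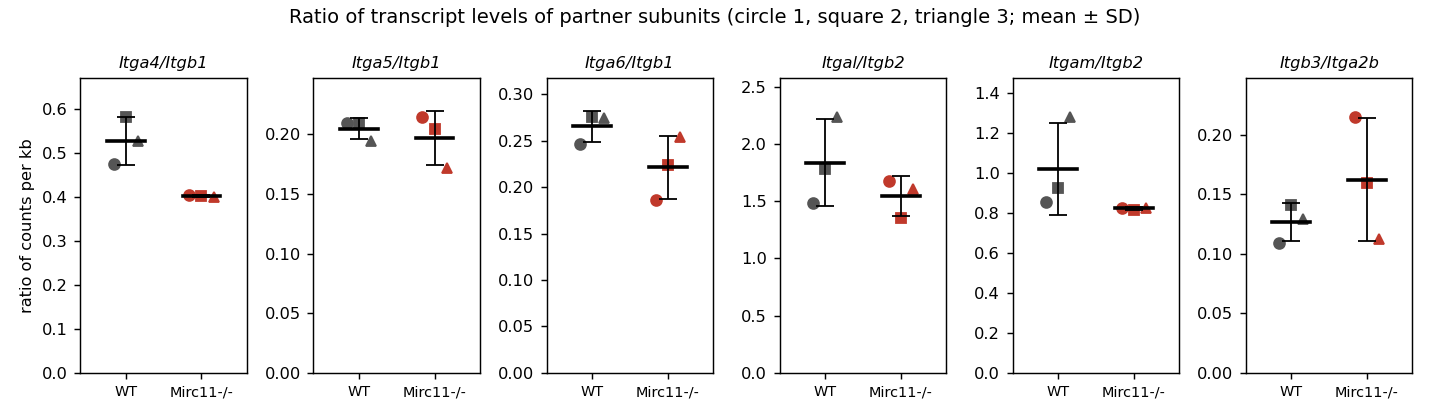
Ratio of normalized counts per kb (y axis, from 0) of 6 pairs of partner chains in wildtype (gray) and Mirc11-/- (red) HSPCs. Markers are libraries 1 (circle), 2 (square) and 3 (triangle), and bars the mean ± SD of 3 libraries. Itga4/Itgb1 lay between 0.474 and 0.583 in wildtype and between 0.399 and 0.404 in Mirc11-/- libraries.

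The rest of the adhesion machinery was followed in 5 lists of 128 genes, of which 116 could be tested. Vcam1, Icam1 and Icam2 are on both the list of other adhesion receptors and that of ligands and matrix. They are counted once in these totals and in each list below. By limma 0 of them passed the threshold, 12 had an unadjusted p under 0.05 (10.3%, beside 8.24% of all genes), and 19 did not overlap between the genotypes (16.4%, beside 12.9%). DESeq2 called 3, beside 0.798% of all genes, and edgeR 0, beside 0.0255%. The median log2 fold change of the 116 genes was 0.015.

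Of the other integrin chains 17 of 18 could be tested, with 10 positive and 7 negative log2 fold changes and a median of 0.050. The 4 with the highest mean were Itga2b, Itgb7, Itgb5 and Itgav, of which αv pairs with β3 and β5, and β7 with α4. Itgb7 had a mean of 1038 ± 59.0 normalized counts in wildtype and of 1079 ± 298 in Mirc11-/- HSPCs (log2 fold change 0.023, limma adjusted p = 0.984), which was -0.0071 without wildtype library 1 and -0.19 without Mirc11-/- library 1. Itgav was at 351 ± 33.6 and 411 ± 27.6 and did not overlap (0.23, adjusted p = 0.633), and Itgb5 at 499.8 ± 207 and 355 ± 64.9 (-0.43, adjusted p = 0.653, and -0.12 without wildtype library 3). Itga8, with the smallest p of the list, was low, at 4.93, 4.96 and 1.01 normalized counts in the wildtype and 21.8, 6.23 and 9.06 in Mirc11-/- libraries (1.51, adjusted p = 0.575).

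Of the genes that activate integrins or link them to actin 30 of 33 could be tested, 18 with positive and 12 with negative log2 fold changes and a median of 0.029. Parvg, the parvin of blood cells that binds integrin-linked kinase, was at 6991 ± 251 in wildtype and 5828 ± 538 in Mirc11-/- HSPCs (log2 fold change -0.27, SE 0.087, limma adjusted p = 0.502). Vcl, or vinculin, which ties talin to actin, was at 1596 ± 69.5 and 1936 ± 234 (0.27, SE 0.10, adjusted p = 0.540). Sharpin, an inhibitor of integrin activation, was at 1070.2 ± 33.2 and 947 ± 6.17 (-0.18, SE 0.078, adjusted p = 0.600). None of the 3 overlapped between the genotypes, and none passed the threshold under any alternative.

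All 29 other adhesion receptors could be tested, with 11 positive and 18 negative log2 fold changes and a median of -0.12. Of these, 5 had an unadjusted p under 0.05 and all 5 were lower in Mirc11-/- HSPCs (4.09% of all genes were), while 7 were below wildtype without overlap (6.53% of all genes). Selp, P-selectin, had 358, 311 and 180.4 normalized counts in wildtype and 109, 125 and 119.7 in Mirc11-/- libraries. Its wildtype values were widely spread and its Mirc11-/- values close together (log2 fold change -1.20, SE 0.24, limma adjusted p = 0.405, DESeq2 0.000733). Cd93, a C-type lectin-like receptor of early progenitors, was at 6203 ± 664 and 4935 ± 685 (-0.33, SE 0.12, limma adjusted p = 0.524).

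Of ligands and matrix genes 26 of 34 could be tested, 12 with positive and 14 with negative log2 fold changes and a median of -0.0053. Icam2, a ligand of LFA-1, was at 833 ± 44.2 in wildtype and 684 ± 70.0 in Mirc11-/- HSPCs (-0.29, SE 0.10, limma adjusted p = 0.524). It is also among the 5 other adhesion receptors with an unadjusted p under 0.05. Hyal2, which cuts hyaluronan, was at 221 ± 9.34 and 288 ± 48.3 (0.37, SE 0.15, adjusted p = 0.576), and Postn, or periostin, at 61.0 ± 16.8 and 34.0 ± 18.5 (-0.91, SE 0.38, adjusted p = 0.588). Of 10 stromal markers, Col3a1 and Dcn were at 0 in all libraries, and the summed level was 897 to 1392 in wildtype and 677 to 1395 in Mirc11-/- libraries.

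Of the 17 cytoplasmic partners and sheddases of CD44 and PECAM1, all tested, 10 had positive and 7 negative log2 fold changes, with a median of 0.055. Mmp9, a gelatinase that binds CD44, was at 16.8, 13.9 and 38.5 normalized counts in the wildtype and 86.1, 62.3 and 56.3 in Mirc11-/- libraries (log2 fold change 1.64, SE 0.39, limma adjusted p = 0.419, DESeq2 0.0352). The study's list of TNF and IL-6 genes, named above, gives Mmp9 the opposite direction. Mmp9 is also among the neutrophil and monocyte markers used above, and the part of such cells in its values was not tested. Ank1, the ankyrin of red cells, was at 1378, 1039 and 757 in wildtype and 3189, 2588 and 929 in Mirc11-/- libraries (0.94, SE 0.41, limma adjusted p = 0.597), in the order of the erythroid markers. Adam10, which sheds CD44, was at 3722 ± 104 and 4311 ± 498 (0.21, SE 0.094, adjusted p = 0.601).

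Without Mirc11-/- library 3, limma called 5 of the 116 genes, beside 430 of 15662 genes in all (2.75%). Apart from Ank1, the 5 are named because of this and so after their values were seen. Itga1, Parvb and Ank1 were higher and Zyx and Cd34 lower in Mirc11-/- libraries 1 and 2. In library 3 each of the 5 was away from those libraries and nearer to wildtype. Cd34, a sialomucin of progenitors, was at 12410, 12883 and 13794 normalized counts in the wildtype and 7475, 9009 and 13380 in Mirc11-/- libraries, and Itga1, a collagen receptor chain, at 63.1, 92.3 and 78.0 and then 295, 149 and 41.3.

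The genes whose profile over the 6 libraries was nearest to a receptor were sought among genes with at least 0.5 of its mean level, by the root mean square difference of centred log2 values. For Pecam1 it was Rgs2, a regulator of G protein signaling, at 0.062 among 4728 genes. For Itgam it was Arhgap15, a Rac GTPase-activating protein, at 0.021 among 5640 genes, and for Itgb3 it was Zfp770 at 0.047 among 9845 genes. With 6 libraries and this many genes a near profile is a description only.

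Promoters from RefSeq (GRCm38.p6), 250 bases before to 50 after the start, were at hand for 5 of the 10 (Itga4, Itga5, Itgam, Itgb1 and Cd44). Those of Itgam and Itgb1, whose values lay on opposite sides of wildtype, are printed with GAGGAA in capitals on either strand (TTCCTC on the other), a core of ETS family motifs such as that of PU.1. The motif stands in 28.3% of all promoters of this length.
Itgam, chr7:128062390-128062689, plus strand: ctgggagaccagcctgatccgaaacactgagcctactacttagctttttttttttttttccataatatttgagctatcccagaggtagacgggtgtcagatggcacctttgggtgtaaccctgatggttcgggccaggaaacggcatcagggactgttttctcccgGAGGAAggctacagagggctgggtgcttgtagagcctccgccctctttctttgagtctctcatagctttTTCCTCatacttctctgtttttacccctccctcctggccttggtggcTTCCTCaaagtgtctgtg
Itgb1, chr8:128685404-128685703, plus strand: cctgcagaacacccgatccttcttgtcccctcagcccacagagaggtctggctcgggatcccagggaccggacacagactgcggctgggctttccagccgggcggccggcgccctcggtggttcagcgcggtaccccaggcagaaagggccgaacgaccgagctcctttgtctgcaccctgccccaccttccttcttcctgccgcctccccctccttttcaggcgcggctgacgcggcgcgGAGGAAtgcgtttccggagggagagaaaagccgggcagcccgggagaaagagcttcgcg

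The Itgam window holds 3 matches, at -84, -15 and 32 bases from the start, and the Itgb1 window 1, at -9. The Itgam window has 50.3% G and C and the Itgb1 window 67.3%, against a median of 52.7% for all promoters. The motif AGATAA of erythroid factors such as GATA1, which stands in 11.2% of all promoters, was sought on both strands as well. It occurs in the Cd44 window, at -233, and not in those of Itgam, Itgb1, Itga4 and Itga5, which says only that the letters are not there. GAGGAA occurs also in the windows of Cd44, at -243 and -220, and Itga5, at -127, and not in that of Itga4.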

How the data were processed

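HSPCs (Lin-Sca1+cKit+) were sorted from the bone marrow of wildtype and Mirc11-/- mice, and groups and replicate numbers were taken from the submitters' labels. The gate is that of the study's methods and of the library titles, while a figure legend of the study writes Lin-Sca1-cKit+. Libraries were made with NEBNext Ultra II. STAR, Cufflinks and mm10 are the tools and build in the submitters' processing notes. The supplementary methods give hg19, but the symbols are of mouse genes. For their versions and for the annotation, the sources used here say nothing. The values deposited by the authors are named FPKM, but are a signal per gene equal to its read count over a library size factor: in every library 100% of the nonzero values came out as whole reads, to within 0.001. No gene length enters them. The design assumed normalized values and was kept, and the recovered whole reads went into edgeR and DESeq2 as alternatives.

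Entries that share a symbol (2 symbols) were summed. The genotypes were compared, for genes of mean 1 or more, by limma 3.58.1 (R 4.3.3) on log2(value + 1) with a mean-variance trend. Tests were two-sided, p-values were adjusted over 15662 genes by the Benjamini-Hochberg method, and the threshold was 0.05. Fold changes of low genes are understated on this scale. The edgeR version was 4.0.16 and the DESeq2 version 1.42.0. The main limma fit, edgeR and DESeq2 were run on simulated data, and the other alternatives were not. The 3 libraries of a group are separate RNA preparations, and counting precision is limited by 15029379 to 17051541 reads in genes. Lengths, UTRs and positions came from GENCODE M21 (GRCm38, the build of mm10).

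The members and the gene lists were chosen with earlier results of these data known. The genes named are the 10 receptors, the 3 with the smallest p of each list and all past the threshold, the 4 most abundant other integrin chains, the gene of nearest profile for the 3 receptors with the smallest p, and the 3 miRNA entries. A gene that this rule selects is not reported here. Alternatives were other pseudocounts, filters and scalings, no trend, the replicate block, each library left out, edgeR and DESeq2, and for levels and ratios the exon union and a pseudocount of 1. The LSK, mast cell, B lineage and other marker lists were checked in the same way.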

Additional observations from a re-analysis of the deposited data

How the results depend on the processing

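The number of genes past the threshold was 5 in all and moved to 30 with the replicate block, 125 in DESeq2 and 1 to 430 when 1 library was left out. It was 14 without Mirc11-/- library 1 and 430 without library 3, and 1 or 2 without any of the others, and the cause was not tested. It was 4 to 6 under the other pseudocounts, filters, scalings, no trend and edgeR. Of the 10 receptors, 0 passed except 1 in DESeq2 and 0 to 1 with 1 library left out (Pecam1 in both). Of the other adhesion genes, 0 passed except 3 in DESeq2 (among them Selp and Mmp9) and 0 to 5 with 1 library left out, the 5 without Mirc11-/- library 3. With 1 library left out, signs turned for Itgb2 (-0.12 to 0.14), Itga6 (-0.099 to 0.048), Itga2b (-0.037 to 0.30) and Itgb7 (-0.19 to 0.17). Under the settings run they turned for no other of the 10 receptors and no other adhesion list gene named for its p or its level. The nearest-profile genes and miRNA entries were not refitted as named results. Nor were genes named only as cell type markers or only for the fit without Mirc11-/- library 3.

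The replicate block used the numbers of the labels, which did not pair the libraries: the deviations of libraries with the same number correlated by 0.143, -0.198 and 0.196. With the block 0 of the 10 receptors and 0 of the other adhesion genes passed the threshold. The log2 differences of the 6 partner ratios were the same to 2 decimals under a pseudocount of 1 and the exon union. With 1 library left out they ranged from -0.46 to -0.32 for Itga4/Itgb1, -0.12 to 0.037 for Itga5/Itgb1, -0.38 to -0.15 for Itga6/Itgb1, -0.38 to -0.082 for Itgal/Itgb2, -0.40 to -0.11 for Itgam/Itgb2 and 0.089 to 0.56 for Itgb3/Itga2b. The levels per kb fell by more than the spread for 7 of 10 receptors with the exon union as length.

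Of the 10 receptors Itgb3 rested on the fewest reads, 1958 over the 6 libraries, and Itga4 on the most, 37846. Depth limits the low genes named, such as Itga8 and Mmp9, more than these.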

Other observations

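Of 12 B lineage markers 9 had positive and 3 negative log2 fold changes, with summed levels of 10777 to 14113 in wildtype and 6702 to 12654 in Mirc11-/- libraries. Of 11 mast cell and basophil markers Mcpt4, Tpsb2 and Tpsab1 were at 0 in all libraries, and the summed level was 1815 to 1977 in wildtype and 1647 to 3524 in Mirc11-/- libraries. By limma 0 genes of both lists passed the threshold in all libraries. Without Mirc11-/- library 3, 1 of each passed, beside 2.75% of all genes. In all libraries 2 of each had an unadjusted p under 0.05, beside 8.24% of all genes.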
